A study of Mus musculus with 2 samples.

Results

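The 10 genes described here break down or build triglyceride, and were taken by symbol from the 32285 genes measured in nuclei of interscapular brown adipose tissue (BAT). They are Pnpla2, Lipe, Mgll, Abhd5 and G0s2 on the side of lipolysis, and Dgat1, Dgat2, Gpam, Agpat2 and Lpin1 on the side of triglyceride synthesis. In adipocyte nuclei of the KO library, G0s2 was 3.24-fold lower than in WT, Pnpla2 and Dgat1 were 1.74-fold and 1.72-fold lower, and Mgll was 1.59-fold higher, while Dgat2 and Lpin1 differed by no more than their counting error.

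Single-nucleus RNA-seq was made from 1 WT and 1 KO library of 8-week-old mice. Both genotypes carried SRSF1 flox/flox alleles, and the KO mice also carried a Cre recombinase under the Adipoq promoter, which is active in mature adipocytes. WT mice were littermates without Cre, the Cre line was on C57BL/6J, and the study used males. How many mice went into a library is not stated in the sources used here. With 1 library per genotype, nuclei were not replicates, so no test was possible, and any difference between genotypes is also a difference between these libraries.

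Stored triglyceride is cleaved in steps. ATGL, the product of Pnpla2, releases the first fatty acid and leaves diacylglycerol, hormone-sensitive lipase (Lipe) acts on diacylglycerol, and monoacylglycerol lipase (Mgll) releases the last fatty acid and glycerol. ABHD5 (also CGI-58) activates ATGL and G0S2 inhibits it. In the opposite direction, fatty acids are added to glycerol 3-phosphate by GPAM and AGPAT2, lipin 1 (Lpin1) removes the phosphate, and DGAT1 or DGAT2 adds the last fatty acid. In brown adipocytes, beta-adrenergic signals start lipolysis, and the fatty acids serve as fuel and as activators of heat production.

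Levels are sums of unique molecular identifiers (UMIs, 1 per captured RNA molecule) over the nuclei of a class, scaled to counts per 1000000 UMIs (CPM). Values in brackets or after "interval" are 95% ranges from exact Poisson or binomial counting, and cover counting error only. For changes in the UMIs of 1 gene per UMI of another, they are Wald ranges on the log scale from the same counts. Depth was 93102814 UMIs over 12846 WT barcodes (median 3439.5) and 80090208 UMIs over 11495 KO barcodes (median 4363). The median mitochondrial share was 1.10% in WT and 0.0491% in KO, and 52 barcode sequences occurred in both libraries. Nuclei were called by sums of marker UMIs, which include none of the 10 genes. This gave 2289 WT and 1246 KO adipocyte nuclei, 286 and 1543 adipocyte stem and precursor cells (ASPCs), 1816 and 1043 endothelial, 388 and 2763 immune, and 548 and 332 mural nuclei. No class was given to 54.0% of the kept WT nuclei and 36.8% of those of KO.

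The adipocyte markers used in the class calls were Adipoq, Plin1, Plin4, Cidec, Pparg, Acvr1c and Lgals12. Their summed level in adipocyte nuclei was 8477 CPM in WT and 8352 CPM in KO. The calls select for this level, so it is no check of them. Its makeup differed, with Pparg at 5677 CPM in WT and 2857 CPM in KO and Plin4 at 358 and 2943 CPM. The summed level reached 1672 to 4757 CPM in the other 4 classes of WT and 1060 to 2606 CPM in those of KO, highest in mural nuclei in both libraries. Pparg was the largest part of this sum in each of these classes. It was at 2712 CPM in WT and 1895 CPM in KO endothelial nuclei, 1135 and 660 CPM in immune, 1593 and 590 CPM in ASPC and 3393 and 1586 CPM in mural nuclei. Whether these nuclei express Pparg themselves was not tested. None of the 7 markers was at 0 in any class. Uncalled nuclei held 6539 CPM in WT and 3755 CPM in KO. Nuclei called Schwann held 5792 and 3469 CPM of adipocyte markers against 1280 and 857 CPM of their own, which goes against that name, and they were not compared. WT nuclei called mural likewise held more adipocyte than mural markers, 4757 against 3744 CPM, while KO mural nuclei held 2606 against 4109 CPM. The levels given for mural nuclei rest on these calls. Srsf1, the targeted gene, was at 188 CPM in WT and 62.7 CPM in KO adipocyte nuclei. Its log2 ratio (KO over WT) was -1.58 (-1.71 to -1.46). In the other 4 classes its ratio lay between -0.80 and -0.41. The counts come from the 3' end of transcripts, and whether that stretch is deleted was not checked.

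Of the lipolysis genes, G0s2, the inhibitor of ATGL, differed most. It had 10848 UMIs or 558 CPM in WT and 1596 UMIs or 172 CPM in KO adipocyte nuclei, a log2 ratio of -1.69 (-1.77 to -1.62). The KO level was thus far below the WT level relative to counting error. Pnpla2, which encodes ATGL itself, was at 212 CPM in WT and 121 CPM in KO, a log2 ratio of -0.80 (-0.90 to -0.71). Abhd5, the activator, was at 287 CPM in WT and 345 CPM in KO, a log2 ratio of 0.27 (0.21 to 0.33). The enzyme and its inhibitor were both lower in KO and the activator was higher, each beyond counting error. Without subtraction of any background the ratio of Pnpla2 was -0.80, and when the level measured in endothelial nuclei was subtracted from each library it was -0.10. In endothelial nuclei Pnpla2 was at 58.8% of its adipocyte level in WT and at 33.1% in KO.

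Set against each other within a library, UMIs of G0s2 per UMI of Pnpla2 were 2.63 in WT and 1.42 in KO, a log2 change of -0.89 (-1.01 to -0.77). UMIs of Abhd5 per UMI of Pnpla2 were 1.35 in WT and 2.85 in KO, a change of 1.07 (0.96 to 1.18). UMIs of Abhd5 per UMI of G0s2 were 0.514 in WT and 2.00 in KO, a change of 1.96 (1.86 to 2.06). Transcripts of the activator therefore stood higher relative to those of the enzyme and of the inhibitor in the KO library. The same direction was seen for G0s2 per Pnpla2 in the other 4 classes, with changes between -1.96 and -1.22, and for Abhd5 per G0s2, with changes between 1.63 and 3.13. For Abhd5 per Pnpla2 the change was 0.88 in ASPC, 1.17 in endothelial and 1.30 in immune nuclei. In mural nuclei it was 0.28, with an interval spanning 0 (-0.08 to 0.65). These classes also hold adipocyte transcripts, and the part of those in the ratios was not tested.

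Lipe and Mgll, which act on the later steps, stood apart from each other. Lipe was at 889.8 CPM in WT and 773 CPM in KO adipocyte nuclei, a log2 ratio of -0.20 (-0.24 to -0.16), or 1.15-fold lower. With the endothelial level subtracted its ratio was 0.05. Mgll was at 419.9 CPM in WT and 668 CPM in KO, a log2 ratio of 0.67 (0.62 to 0.72). UMIs of Mgll per UMI of Lipe were 0.472 in WT and 0.864 in KO, a change of 0.87 (0.81 to 0.94). The gene of the last lipolytic step was thus the member with the highest ratio in adipocyte nuclei. Mgll transcripts are also abundant in endothelial nuclei, and the summed endothelial markers in adipocyte nuclei were at 242 CPM in WT and 60.6 CPM in KO. Their part in the ratio of Mgll was not tested, and with the endothelial level subtracted Mgll had no value.

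**Figure D1:**
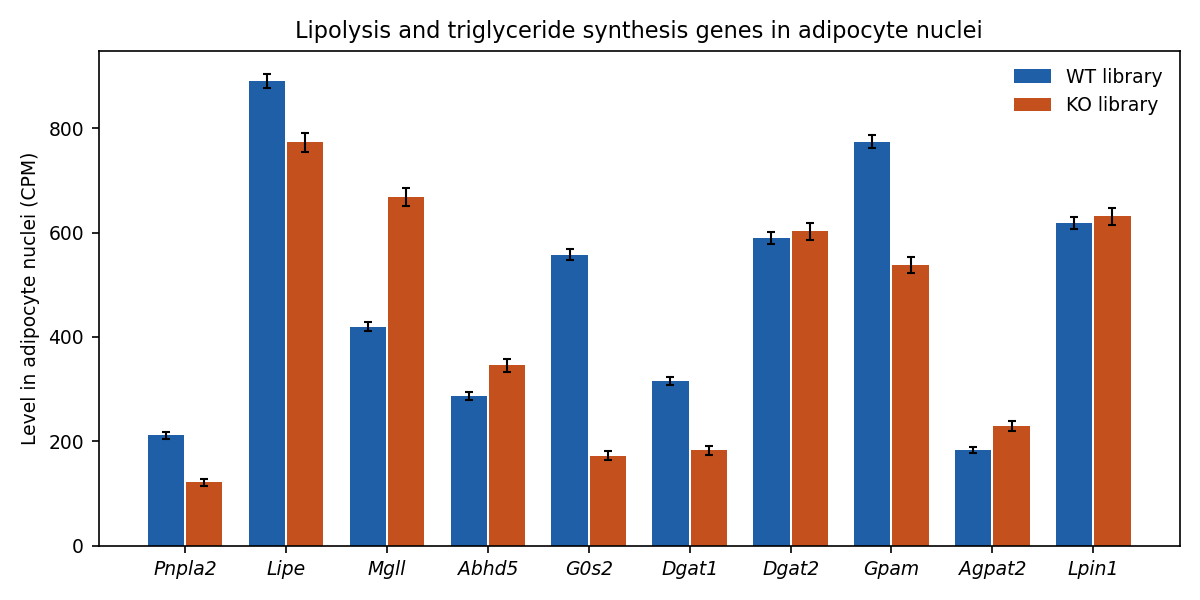
Level of each of the 10 genes in adipocyte nuclei, in CPM from summed UMIs, with 1 bar for the WT and 1 for the KO library and 95% counting intervals as error bars. G0s2 is at 558 CPM in WT and 172 CPM in KO, and Mgll at 419.9 and 668 CPM.

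The sequences around the starts of G0s2 and Pnpla2, lower in KO in every class, and of Mgll, higher in KO in adipocyte and endothelial nuclei, are shown because they are the genes on which the comparison turns. RefSeq windows on GRCm38.p6 run from 250 bases before to 50 bases after the start and are given 5' to 3' on the gene's strand, with matches to the searched motifs in capitals. The windows are chr1:193273139-193273438 on the minus strand for G0s2, chr7:141454938-141455237 on the plus strand for Pnpla2, and chr6:88724162-88724461 on the plus strand for the first of the 2 windows of Mgll.
G0s2: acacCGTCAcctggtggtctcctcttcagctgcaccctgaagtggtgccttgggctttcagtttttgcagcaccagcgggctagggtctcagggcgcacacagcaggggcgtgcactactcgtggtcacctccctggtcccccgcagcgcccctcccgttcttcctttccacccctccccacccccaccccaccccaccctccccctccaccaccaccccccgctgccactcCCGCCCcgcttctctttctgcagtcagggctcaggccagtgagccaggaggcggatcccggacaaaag
Pnpla2: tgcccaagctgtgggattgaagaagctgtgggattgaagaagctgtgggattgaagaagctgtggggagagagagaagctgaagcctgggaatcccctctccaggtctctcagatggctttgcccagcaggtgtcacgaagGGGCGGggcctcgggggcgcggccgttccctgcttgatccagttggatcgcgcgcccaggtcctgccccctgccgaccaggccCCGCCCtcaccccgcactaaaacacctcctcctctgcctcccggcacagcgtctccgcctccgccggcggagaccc
Mgll: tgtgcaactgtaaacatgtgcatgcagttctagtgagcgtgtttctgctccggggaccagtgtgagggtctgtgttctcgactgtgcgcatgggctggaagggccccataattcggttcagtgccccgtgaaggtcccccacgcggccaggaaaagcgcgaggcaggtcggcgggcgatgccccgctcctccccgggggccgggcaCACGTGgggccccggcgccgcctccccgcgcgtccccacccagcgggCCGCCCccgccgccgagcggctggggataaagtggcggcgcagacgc

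In these windows the capitals mark a GC box (GGGCGG) in all 3, in either orientation, the E-box CACGTG in Mgll and the CRE core TGACG in G0s2. RefSeq windows were found for 8 of the 10 genes, 11 windows in all. A GC box stood in 8 of these 11 windows, from 7 genes, and in 35.7% of all 32851 windows. The members' windows were 55.3% to 72.3% G or C, beside a median of 52.7% over all windows. The E-box stood in windows of Lipe and Mgll and in 7.15% of all windows, and the nuclear receptor hexamer AGGTCA in those of Abhd5, Gpam and Lpin1 and in 16.3% of all windows. The CRE core stood in windows of Mgll, Abhd5, G0s2 and Gpam and in 20.8% of all windows. CCAAT stood in a window of Gpam and in 37.4% of all windows. No window of the members held TATAAA, the full CRE TGACGTCA, the C/EBP-like letters TTGCGCAA or a direct repeat of AGGTCA with 1 base between. Both strands were searched, a full CRE holds its core, and a match is a run of letters only.

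On the synthesis side, the genes that add the last fatty acid parted. Dgat1 was at 315 CPM in WT and 183 CPM in KO adipocyte nuclei, a log2 ratio of -0.79 (-0.86 to -0.71). Dgat2 was at 589 CPM in WT and 602 CPM in KO, a log2 ratio of 0.03 (-0.02 to 0.08). The WT and KO levels of Dgat2 did not differ beyond counting error. Over the settings tried its ratio lay between -0.09 and 0.29, the highest with the endothelial level subtracted. UMIs of Dgat1 per UMI of Dgat2 were 0.535 in WT and 0.304 in KO, a change of -0.82 (-0.91 to -0.73). In ASPC, endothelial and immune nuclei this change was -0.01, 0.27 and 0.02, each with an interval spanning 0, and in mural nuclei it was -0.43 (-0.78 to -0.09).

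The genes of the earlier steps did not share 1 direction. Gpam, which adds the first fatty acid to glycerol 3-phosphate, was at 774 CPM in WT and 538 CPM in KO, a log2 ratio of -0.53 (-0.57 to -0.48). Agpat2, which adds the next one, was at 184 CPM in WT and 229 CPM in KO, a log2 ratio of 0.32 (0.24 to 0.39). Lpin1, whose product forms diacylglycerol and also acts in the nucleus on transcription, was at 619 CPM in WT and 631 CPM in KO, a log2 ratio of 0.03 (-0.02 to 0.07). Gpam was lower and Agpat2 higher beyond counting error, and Lpin1 was neither, with ratios between -0.11 and 0.22 over the settings tried. The ratio of Agpat2 lay between 0.12 and 1.08 over the settings tried, the highest with the endothelial level subtracted.

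Counted together, 1 of the 10 genes was lower by 2-fold or more in KO adipocyte nuclei (G0s2) and 0 were higher by as much. Over the 13394 genes with at least 50 UMIs over both libraries, 16.6% were lower and 17.9% higher by 2-fold or more, so the members' counts stood at or below this background. Their median log2 ratio was -0.09 beside 0.06 over all genes. The interval lay below 0 for 5 of the 10, above 0 for 3 and spanned 0 for 2. Over all kept nuclei, whose make-up by class differed between the libraries, 6 of the 10 were lower and 0 higher by 2-fold or more, where 18.1% of 18258 genes were lower and 22.7% higher. Mgll, higher in KO adipocyte nuclei, was lower in KO over all kept nuclei, at 538 and 481 CPM, a log2 ratio of -0.16 (-0.18 to -0.14). By quantitative PCR of whole BAT, an unlike measure, the study reported less Lipe and Mgll mRNA in KO mice. In uncalled nuclei, which also held adipocyte markers, G0s2 was at 474 CPM in WT and 78.3 CPM in KO, and Mgll at 521 and 473 CPM.

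The share of adipocyte nuclei with at least 1 UMI gave the same picture for most members. A UMI of G0s2 was present in 86.1% of WT nuclei and in 51.5% of KO nuclei, with median depths of 7053 and 6135.5 UMIs. After thinning each nucleus to 1000 UMIs, which left out 107 WT and 19 KO nuclei, these shares were 40.7% and 14.7%. Pnpla2 was found in 71.8% and 50.4%, and in 19.8% and 11.6% after thinning. Both genes were thus detected in fewer KO nuclei at equal depth. For Mgll the shares were 78.5% and 80.5%, and 31.3% and 40.1% after thinning. For Agpat2 the order turned with depth, from 64.7% and 61.1% to 16.7% and 20.2% after thinning. The change at equal depth followed the CPM for Mgll and Agpat2 as well. Dgat2, whose CPM did not differ, was present after thinning in 41.2% of WT nuclei and in 36.6% of those of KO, and no order is read from it.

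In the other 4 classes nearly all members were lower in KO, several of them far more than in adipocyte nuclei. In endothelial nuclei 7 of the 10 were lower by 2-fold or more and 0 higher, where 12.0% of 10517 genes were lower and 3.81% higher. In immune nuclei 7 were lower, where 10.7% of 12214 genes were lower. In ASPC nuclei 6 were lower against 10.6% of 11525 genes, with Agpat2 just short of the limit at -0.996, and in mural nuclei 5 were lower against 11.8% of 10065 genes. No member was higher by 2-fold or more in these classes, where 6.20% of genes in ASPC, 7.12% in immune and 8.49% in mural nuclei were. The members' medians were -1.31 for endothelial, -1.19 for immune, -1.21 for ASPC and -1.08 for mural nuclei, with medians over all genes of -0.01, 0.01, -0.01 and 0.10. When Plin4, which was much higher in KO, was left out of the class calls, 4 members were lower by 2-fold or more in immune and 4 in ASPC nuclei, and with marker shares scaled per library 10 and 9 were.

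Adipocyte markers moved with the members in these classes. Of the 7 markers, 6 were lower by 2-fold or more in ASPC, 5 in endothelial, 5 in mural and 3 in immune nuclei of KO, and 0 in adipocyte nuclei. Their median log2 ratios were -1.39, -1.70, -1.10 and -0.91, and 0.10 in adipocyte nuclei. Adipocyte nuclei were called by these same markers, so their count and median there are partly set by the calls and give no contrast. Pparg, at -0.99, was just short of the 2-fold limit in adipocyte nuclei. Plin4 was the exception to the lower levels and was higher in KO in every class, with a log2 ratio of 3.04 in adipocyte nuclei. The part of adipocyte transcripts in the members' ratios outside adipocytes was not tested.

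**Figure D2:**
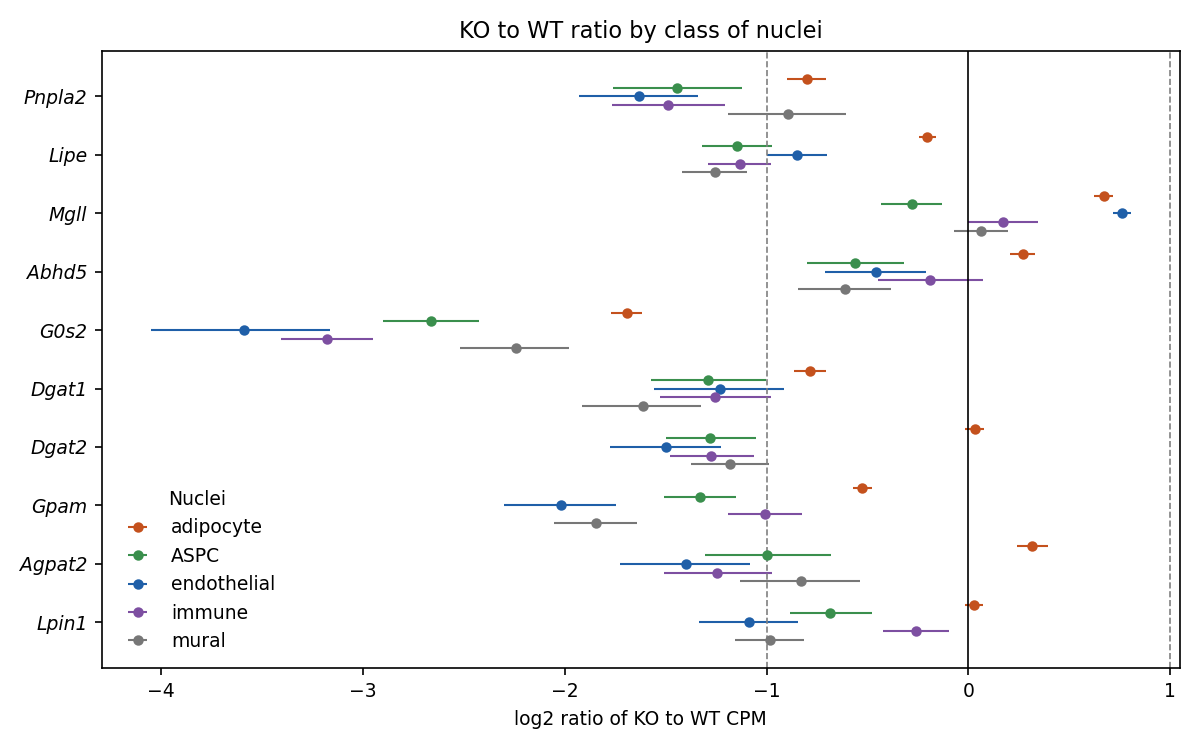
Log2 ratio of KO to WT CPM (horizontal axis) for each of the 10 genes in 5 classes of nuclei, with 95% counting intervals as lines and 2-fold limits dashed. Adipocyte nuclei have the highest ratio of the 5 classes for 9 genes, and Mgll in endothelial nuclei reaches 0.76.

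G0s2 had the lowest ratio of the 10 genes in each of the 5 classes. It was at 197 CPM in WT and 16.4 CPM in KO endothelial nuclei, a log2 ratio of -3.59 (-4.05 to -3.16). In immune nuclei it was at 175 and 19.4 CPM, a ratio of -3.18 (-3.40 to -2.95). In ASPC nuclei it was at 187 and 29.5 CPM, and in mural nuclei at 306 and 64.7 CPM. As a share of the adipocyte level, G0s2 in endothelial nuclei was 35.3% in WT and 9.49% in KO. In that class 36.8% of WT and 3.74% of KO nuclei had a UMI of G0s2, at median depths of 2317 and 2161 UMIs. The part of free adipocyte RNA in these shares was not tested.

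Mgll was the member that did not follow the adipocyte markers. Its level was highest in endothelial nuclei, with 1594 CPM in WT and 2698 CPM in KO, a log2 ratio of 0.76 (0.71 to 0.80). This was 379.7% of its adipocyte level in WT and 403.8% in KO. Adipocyte nuclei came next, followed by mural nuclei with 347 and 362 CPM, ASPCs with 262 and 215 CPM and immune nuclei with 152 and 171 CPM. The order of the 5 classes was the same in both libraries, and no neighbours in it had overlapping intervals. A UMI of Mgll was present in 84.6% of WT endothelial nuclei and in 86.0% of those of KO, and in 69.9% and 78.1% after thinning. The endothelial markers used in the calls also differed within this class. Their log2 ratios were -1.11 for Emcn, -0.73 for Kdr and 0.57 for Pecam1, and between -0.09 and 0.07 for the others. Whether the make-up of the class bears on the ratio of Mgll was not tested. In immune nuclei, at 4390.5 and 4285 UMIs, the shares were 33.2% and 18.9%. The ratio of Mgll was -0.28 (-0.43 to -0.13) in ASPC nuclei, and its interval reached 0 in immune and mural nuclei.

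For the other 9 genes the level was highest in adipocyte nuclei, and for 8 of them mural nuclei came next in WT. For Pnpla2 in WT, endothelial nuclei with 124 CPM and mural nuclei with 119 CPM had overlapping intervals. In KO mural nuclei came next for all 9, and for Lipe the interval overlapped that of endothelial nuclei (196 and 174 CPM). Over the 10 genes, the median level outside adipocytes as a share of the adipocyte level was 31.4% for ASPCs, 33.5% for endothelial, 27.3% for immune and 56.5% for mural nuclei of WT. The same medians were 16.9%, 17.2%, 15.6% and 30.0% in KO. For the 7 markers they were 26.6%, 21.03%, 18.3% and 50.3% in WT and 8.71%, 6.96%, 8.35% and 18.5% in KO. The medians of members and markers thus both stood lower outside adipocytes in the KO library. Not every gene followed. Pparg was at 47.8% in WT and 66.3% in KO endothelial nuclei and at 20.0% and 23.1% in immune nuclei. Mgll was also at a higher share in KO endothelial nuclei, as given above.

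Apart from Mgll, Lpin1 and Abhd5 had the ratios nearest to 0 in immune nuclei. Lpin1 was at 182 CPM in WT and 152 CPM in KO immune nuclei, a log2 ratio of -0.26 (-0.42 to -0.10), while in endothelial nuclei it was at 131 and 61.5 CPM. After thinning, a UMI of Lpin1 was present in 15.0% of WT immune nuclei and in 12.1% of those of KO, and of G0s2 in 15.0% and 1.31%. The 2 genes were thus found at the same share of WT immune nuclei and at unlike shares in KO. Abhd5 was at 72.1 and 63.2 CPM, a ratio of -0.19 whose interval spanned 0. Dgat2 in immune nuclei was at 129 and 53.3 CPM, a ratio of -1.27 (-1.48 to -1.06).

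**Figure D3:**
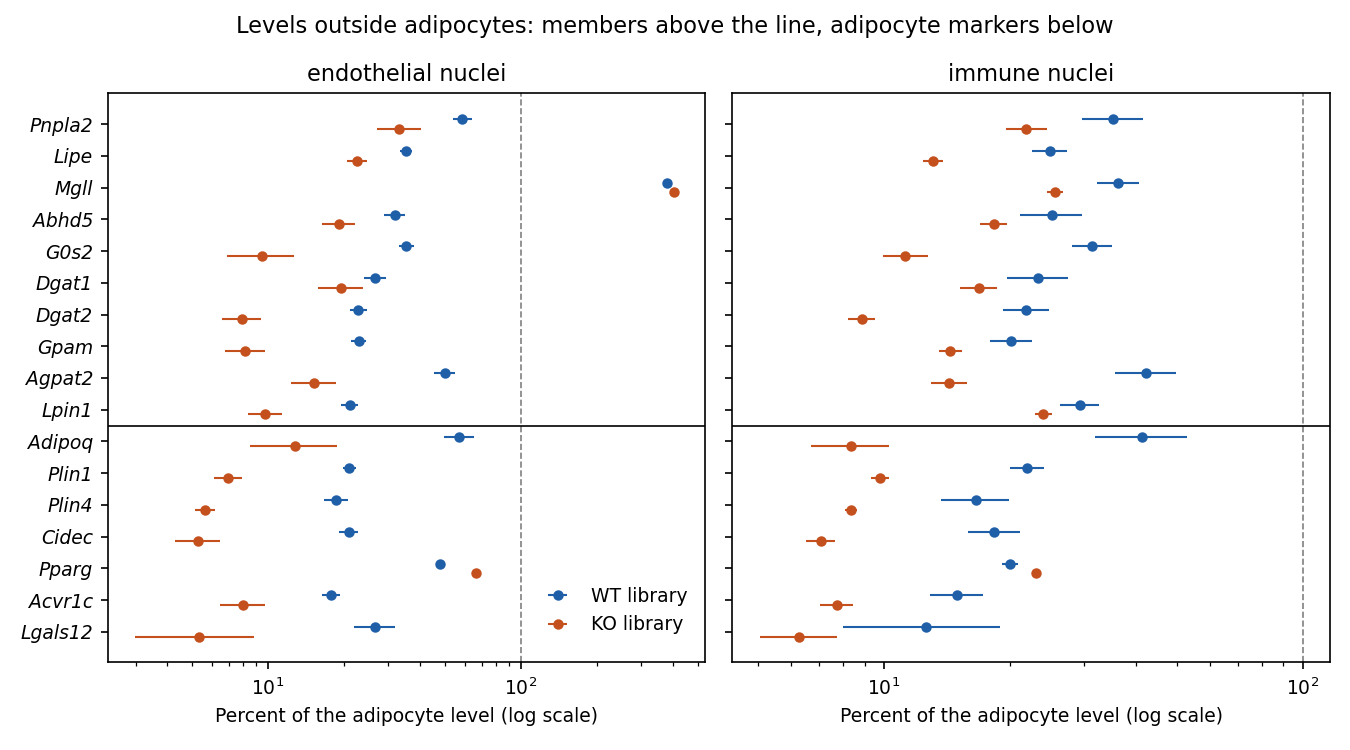
Level in endothelial (left) and immune (right) nuclei as a percent of the level in adipocyte nuclei of the same library, on a log axis with 95% counting intervals, for the 10 genes above the line and the 7 adipocyte markers below it. Mgll in endothelial nuclei lies at 379.7% in WT and 403.8% in KO, and the other genes lie below 100%.

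Other genes of the same pathways were read from a list of 33, all of which passed the minimum of 50 UMIs in adipocyte nuclei. Of these, 11 were lower by 2-fold or more in KO, 3 were higher and 19 lay between, with a median of -0.33. The background in adipocyte nuclei is the 16.6% and 17.9% given above. The largest ratios downwards included the genes that supply glycerol 3-phosphate. Gk, glycerol kinase, was at 3680 CPM in WT and 875.5 CPM in KO, a log2 ratio of -2.07 (-2.11 to -2.04). Pck1, the enzyme of glyceroneogenesis, was at 1894 and 489.7 CPM, a ratio of -1.95 (-1.996 to -1.91). Gpd1, which reduces dihydroxyacetone phosphate to glycerol 3-phosphate, was at 1670 and 537 CPM, a ratio of -1.64 (-1.68 to -1.59). All 3 were lower in KO by more than 3-fold. They were also lower in KO outside adipocytes. The ratios of Gk, Pck1 and Gpd1 were -2.37, -3.88 and -3.37 in endothelial nuclei and -2.16, -3.21 and -2.65 in immune nuclei.

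Ces1d, a carboxylesterase that can hydrolyse triglyceride, was at 795 and 148 CPM, a ratio of -2.43. Adrb3, the receptor through which brown adipocytes mainly receive noradrenaline, was named after its values were seen, and was at 343 and 133 CPM, a ratio of -1.37. Plin5, the droplet protein that binds ATGL, was likewise named afterwards, and was at 115 and 40.5 CPM, a ratio of -1.51. These 3 genes were each more than 2-fold lower in KO. The ratios of Ces1d, Adrb3 and Plin5 were -3.24, -2.70 and -3.70 in endothelial nuclei and -3.33, -2.48 and -2.70 in immune nuclei. The part of adipocyte transcripts in those ratios was not tested. Prkaca and Prkacb, catalytic subunits of protein kinase A that were also named afterwards, had ratios of -0.45 and -0.15.

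Upwards, Gpat3 had the highest ratio. Gpat3, a glycerol 3-phosphate acyltransferase of the endoplasmic reticulum, was at 67.4 CPM in WT and 235 CPM in KO, a ratio of 1.80 (1.70 to 1.90). Gpat4, its close relative, named after its values were seen, was at 444.5 and 147 CPM, a ratio of -1.59 (-1.68 to -1.51). The acyltransferases of the first step thus differed in opposite directions, with Gpam and Gpat4 lower and Gpat3 higher in KO. Mogat1, which makes diacylglycerol from monoacylglycerol, had 78 and 122 UMIs, a ratio of 1.72 (1.29 to 2.15). Plin2, a coat protein of lipid droplets, was at 589 and 1677 CPM, a ratio of 1.51 (1.47 to 1.54). Both were more than 2-fold higher in KO.

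Abhd12 and Agpat4 completed the 5 largest ratios upwards, at 0.82 and 0.74. Abhd12 was at 68.4 and 121 CPM in adipocyte nuclei and at 316 and 654 CPM in immune nuclei. The summed immune markers in adipocyte nuclei were at 115 CPM in WT and 221 CPM in KO, and their part in the ratio of Abhd12 was not tested. Plin2 was at 535 and 855 CPM in immune nuclei, and Gpat3 at 20.97 and 24.7 CPM. For Gpat3 the immune level in KO was therefore well below the adipocyte level.

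**Figure D4:**
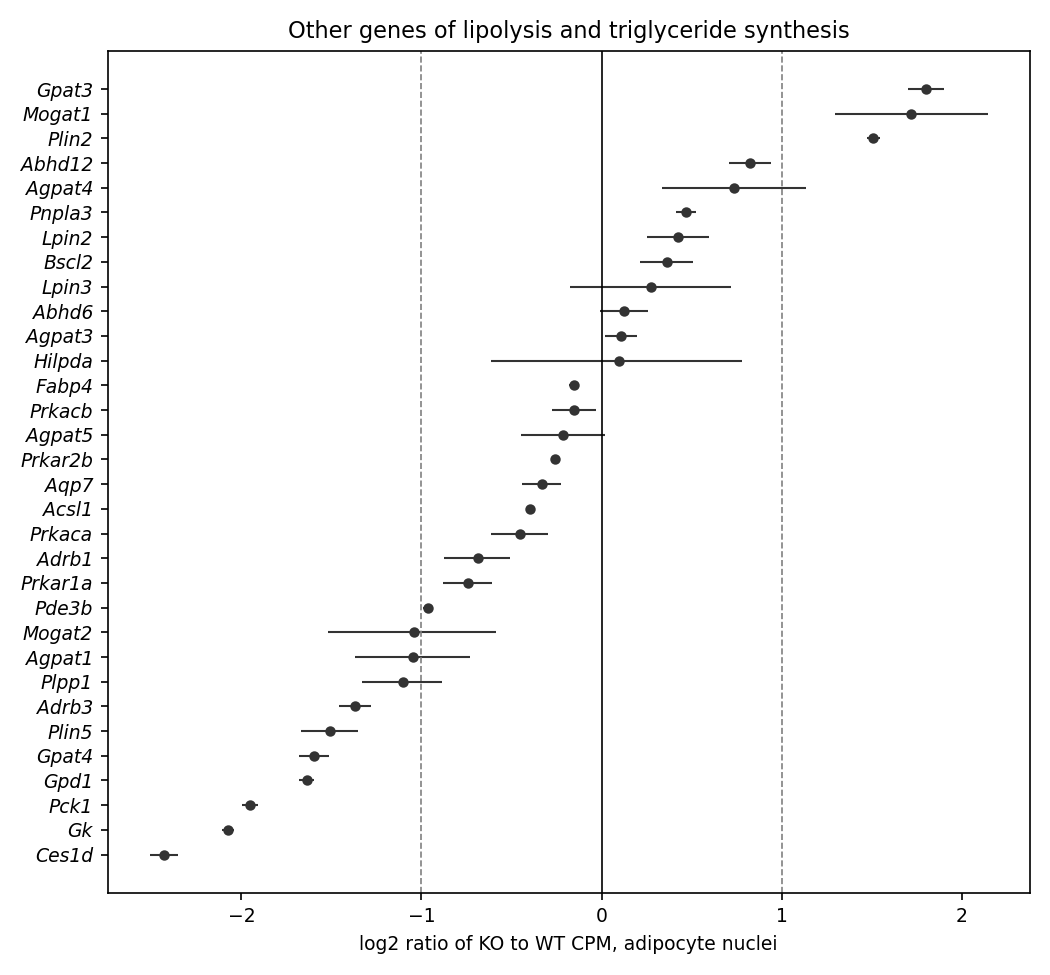
Log2 ratio of KO to WT CPM in adipocyte nuclei for 32 other genes of lipolysis and triglyceride synthesis, in order of the ratio, with 95% counting intervals and 2-fold limits dashed. Gpat3 has the highest of these ratios at 1.80 and Ces1d the lowest at -2.43.

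Among adipocyte nuclei of 1 library, the members varied with the share of UMIs from the fatty acid synthesis genes Acaca, Fasn, Acly and Elovl6. The lowest and the highest tertile of this share held 763 nuclei each in WT, and 416 and 415 in KO. Agpat2 was at 143 CPM in the lowest and 221 CPM in the highest tertile of WT, a log2 ratio of 0.63 (0.51 to 0.76), and at 154 and 325 CPM in KO, a ratio of 1.07 (0.92 to 1.24). It was thus higher in nuclei with a high share in both libraries. Gpam was at 732 and 791 CPM in WT, a ratio of 0.11 (0.05 to 0.17), and at 378 and 711.5 CPM in KO, a ratio of 0.91 (0.81 to 1.02). The KO level of Gpam was below that of WT in both tertiles, and the gap was smaller in the highest. Lipe had a ratio of -0.16 in WT and 0.44 in KO, and Pnpla2 of 0.08 and -0.25. The spread of the share itself was wider in KO, at 0.137% and 1.45% in the lowest and highest tertile against 0.224% and 0.770% in WT.

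Nuclei with 2 or more UMIs of Slc7a10 and Lep, genes known from white adipocytes, numbered 159 in WT and 363 in KO, and those with none 1929 and 730. The former were deeper, with medians of 9999 against 6784 UMIs in WT and 8718 against 5131 UMIs in KO. Gpam was lower in them, at 571 against 811 CPM in WT, a ratio of -0.50 (-0.58 to -0.43), and at 373 against 684 CPM in KO, a ratio of -0.87 (-0.97 to -0.78). Mgll was higher, with ratios of 0.52 in WT and 0.32 in KO, and so was Lpin1, with 0.31 and 0.40. Lipe, with 0.27 and 0.13, and Dgat2, with 0.15 and 0.44, were also higher. All of these genes kept their direction in both libraries, each beyond counting error. Markers of other cell types also differed between these nuclei. Immune markers were at 206 against 97.1 CPM in WT and 249 against 199.8 CPM in KO, and endothelial markers at 316 against 217 CPM and 67.8 against 57.0 CPM, and their part in these ratios was not tested. G0s2 did not keep its direction, with -0.44 (-0.53 to -0.35) in WT and 0.21 (0.06 to 0.37) in KO, and neither did Abhd5, with 0.14 and -0.19. Among nuclei without UMIs of Slc7a10 and Lep, G0s2 was at 580 CPM in WT and 161 CPM in KO.

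**Figure D5:**
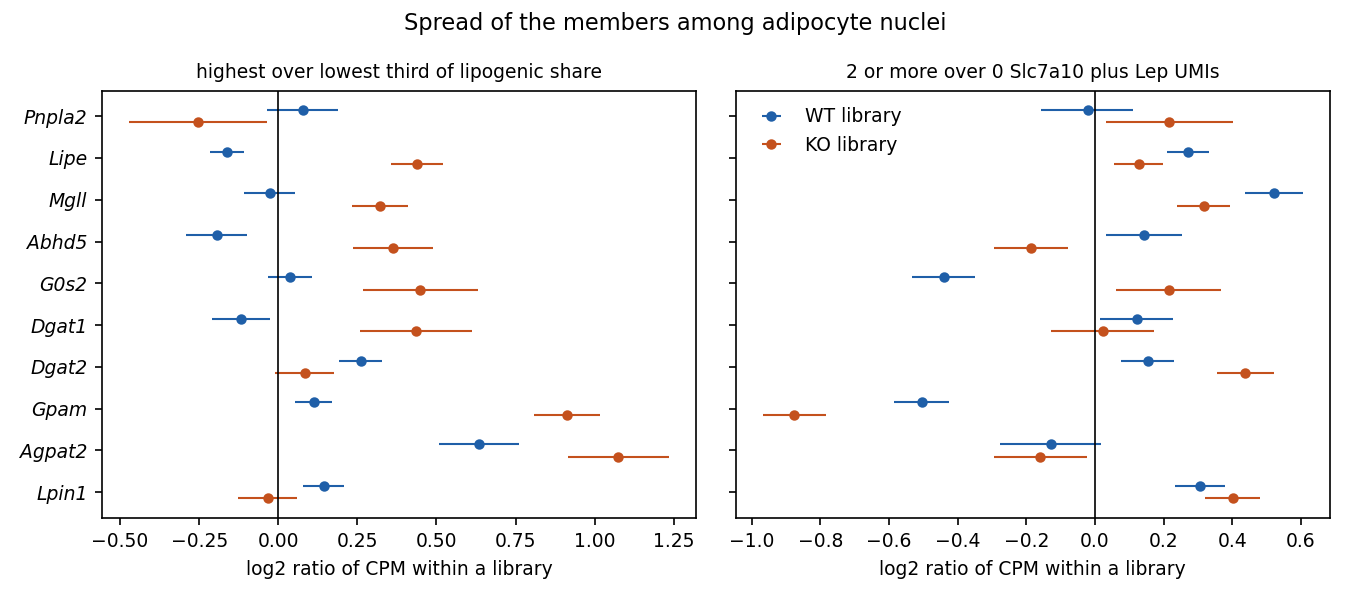
Log2 ratio of CPM between subsets of adipocyte nuclei of the same library, the highest over the lowest tertile of fatty acid synthesis genes (left) and nuclei with 2 or more over those with 0 UMIs of Slc7a10 and Lep (right), with 95% counting intervals. Agpat2 and Gpam have the highest ratios of KO on the left, at 1.07 and 0.91, and Gpam the lowest of both libraries on the right.

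The genes whose log2(CPM + 1) was most like that of each member were sought among 10697 genes over 10 points, the 5 classes of each library. These points share 2 libraries, so the correlations are descriptions. G0s2 was most like Car3 (Pearson's r 0.992), a carbonic anhydrase of fat, and Pck1 (0.990). Dgat2 was most like Cidec (0.997) and Plin1 (0.993), and Dgat1 most like Otop1 (0.998) and Acvr1c (0.993). Cidec, Plin1 and Acvr1c were markers used in the class calls. Mgll was most like Plxna2 and Tnfrsf10b (both 0.982). Pnpla2 was most like Ghitm (0.985) and Lipe most like Ormdl3 (0.992).

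By the GENCODE annotation of GRCm38, G0s2 lies at chr1:193272161-193273217 on the minus strand and overlaps Lamb3 on the other strand, and Pnpla2 lies at chr7:141455198-141460743 on the plus strand with no overlap. Mgll lies at chr6:88724412-88828360 on the plus strand and overlaps 5 annotated genes, 3 of them on its own strand. Lipe overlaps 4732471J01Rik, Abhd5 overlaps A730085K08Rik, Gpam overlaps AC110206.1, and Agpat2 overlaps Egfl7 and Gm20532, all on the other strand. Whether the counting used introns and strand is not stated in the sources used here, so reads shared with these neighbours could not be told apart.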

How the data were processed

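Nuclei of interscapular BAT from 1 WT and 1 KO library were measured by droplet snRNA-seq. The counts deposited by the authors are UMIs of each gene in each barcode, aligned to GRCm38 (mm10) with STAR and counted with Cell Ranger, without normalization. The file headers and the submitters' processing notes name version 5.0.0, and the notes also name Seurat 3.1.1. The methods describe aggregation at equal depth, but the counts used here are 1 matrix per library. No column of another sample was present (0 columns).

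Kept nuclei, 12771 in WT and 11378 in KO, had 200 genes or more, no more than 10% mitochondrial UMIs, and log numbers of UMIs and genes that lay no further than 3 median absolute deviations from their library's median. The share of marker UMIs of each of 7 classes was divided by its mean over both libraries, and the largest was called with at least 3 marker UMIs and 2 times the next. UMIs were summed per class and scaled to 1000000. Doublets were scored with Scrublet, which called 0 WT and 2211 KO nuclei (19.4% of KO nuclei and 5.94% of KO adipocyte nuclei), and were kept. The 0 in WT is not read as an absence of doublets, and the calls are not compared between libraries. A gene counted as past 2-fold with 50 or more UMIs over both libraries. Intervals are exact Poisson for levels, exact binomial for shares and for ratios of counts, and Wald on the log scale for changes of pair ratios. The ratio intervals and class calls were tried on simulated counts, drawn by Poisson from the profiles of nuclei already called. Such draws cannot show whether the calls are right, or what free RNA and doublets do to the ratios.

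Named genes were the 10 members, up to 5 of 33 other pathway genes each way, and the 2 most alike genes per member, of which a part is printed, and 1 gene of the pathway list is not reported here by name. The members and lists were chosen with earlier results of these data known. Alternatives are given in the closing section. Tools were Python 3.11.15, numpy 2.4.6, scipy 1.17.1, pandas 2.3.3, scanpy 1.11.5 and matplotlib 3.10.9, and gene places came from GENCODE release 21 of the mouse.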

Additional observations from a re-analysis of the deposited data

Results flagged for a closer look

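Mgll, Abhd5 and Agpat2 were higher in KO than in WT adipocyte nuclei and lower in KO in at least 1 other class, with intervals on opposite sides of 0. The log2 ratio of Mgll was 0.67 in adipocyte and -0.28 in ASPC nuclei, while it was 0.76 in endothelial nuclei and its interval reached 0 in immune (0.17) and mural (0.06) nuclei. That of Abhd5 was 0.27 in adipocyte nuclei against -0.56 in ASPC, -0.46 in endothelial and -0.61 in mural nuclei. That of Agpat2 was 0.32 in adipocyte nuclei against -0.996 in ASPC, -1.40 in endothelial nuclei, -1.24 in immune nuclei and -0.83 in mural nuclei. With 1 library per genotype the difference between classes was not tested, and the median ratio of the adipocyte markers was also below 0 in those classes.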

How the results depend on the processing

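No paired analysis was possible because each genotype has 1 library. Settings were tried on the ratios of the 10 genes and the named pathway genes other than Prkaca and Prkacb, on the counts past 2-fold and on the median, but not on Srsf1, the markers, the pair ratios or the subsets of adipocyte nuclei. Among those tried, no ratio reported as past 2-fold changed sign. The median of the 10 genes in adipocyte nuclei (-0.09) was -0.23 with class calls without Pparg and Plin1, -0.22 with marker shares scaled per library, -0.15 with ratios centred on the median, -0.040 as a mean over nuclei and 0.054 with the endothelial level subtracted, where Mgll had no value. It was -0.16 both with 5 classes in the call and with no margin, which were chosen after seeing the data. With the endothelial level subtracted, 1 gene (Agpat2, 1.08) instead of 0 was higher by 2-fold or more. In mural nuclei 8 genes instead of 5 were lower by 2-fold or more with marker shares scaled per library, and also with a low adipocyte marker sum required, chosen after seeing the data. With class calls without Plin4, also chosen after seeing the data, 4 instead of 7 were lower in immune and 4 instead of 6 in ASPC nuclei (also 4 with a margin of 4 times), and with marker shares scaled per library 10 and 9 were. Of the other pathway genes, 5 instead of 3 were higher with calls without Pparg and Plin1 and with marker shares scaled per library. The cause of these shifts was not tested. The ratio of G0s2 in adipocyte nuclei lay between -1.86 and -1.21 over all settings, that of Pnpla2 between -0.95 and -0.10 and that of Mgll between 0.48 and 0.81. In immune nuclei Mgll lay between -1.51 and 0.26. With 1 library per genotype, depth sets only the counting error.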
